A study of Mus musculus with 30 samples.

Results

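The genes described here are the 85 cytosolic ribosomal protein genes of the mouse count files, 52 of the large and 33 of the small ribosomal subunit. They were taken by symbol (names that start with Rpl, Rps or Rplp followed by a number, and Rpsa) from the 24459 genes of each file, with pseudogene symbols and the S6 kinase genes left out. The libraries came from C57BL/6 mice that carried the G158R substitution in Aiolos, a zinc finger transcription factor of lymphocytes encoded by Ikzf3, on no allele (Ikzf3+/+, here WT), on 1 (Ikzf3+/m, het) or on both (Ikzf3m/m, homo). No treatment was labelled for these mice, and their ages are not used here. Bone marrow was sorted into pre-pro B cells (B220+, AA4.1+, CD43+, IgM-, CD24-) and the later pre-B cells (B220+, AA4.1+, CD24+, IgM-, CD43-), and poly(A) RNA was sequenced from 3 libraries of each genotype at each stage, 18 in all. The ChIP lists came from WT and homo thymocytes and from pre-B cells grown from B220+IgM- marrow on Tst-4 stroma with IL-7, SCF and Flt3L, with 1 library for each antibody, genotype and cell type. The labels do not say whether libraries of a group came from separate mice. Xist and Y-linked counts gave both sexes in each het and homo group, so each of these came from more than 1 mouse. All WT libraries were XX. The p-values thus measure only the spread between these libraries, which may be technical, in WT in whole and in het and homo in part.

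Ribosomal proteins assemble with ribosomal RNA into the small subunit, which reads the messenger, and the large subunit, which joins amino acids. Their messengers carry a terminal oligopyrimidine tract, a cytosine followed by a run of pyrimidines at the 5′ end, through which mTOR signalling sets how strongly they are translated. Growing lymphocyte precursors make many ribosomes, and several members have roles beyond the ribosome: Rpl5 and Rpl11 bind MDM2, Rpl22 is needed for lymphocyte development, and RPS19 is mutated in Diamond-Blackfan anaemia.

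The tract can be seen at the annotated starts. RefSeq (GRCm38.p6) promoter entries matched 64 of the 85 genes. Of these, 27 (42.2%) had a C followed by at least 5 further C or T that began within 5 bases of the start, against 11.9% of all 27025 genes with an entry. The strips below hold 15 bases before the start and 15 from it on, and capitals mark the pyrimidine run. They are shown for the gene with a higher level in pre-B cells of every genotype (Rps15a), for 6 other genes with a tract, and for Rps16 and Rps13, which were lower in pre-B cells in at least 2 genotypes and had no such tract.
Rps15a, chr7:118116133-118116162, minus strand: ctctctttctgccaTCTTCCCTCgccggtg
Rpl28, chr7:4792950-4792979, plus strand: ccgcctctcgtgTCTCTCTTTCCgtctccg
Rpl38, chr11:114668565-114668594, plus strand: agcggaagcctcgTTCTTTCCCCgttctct
Rpl15, chr14:18270972-18271001, minus strand: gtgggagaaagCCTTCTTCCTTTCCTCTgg
Rpl35, chr2:39005117-39005146, minus strand: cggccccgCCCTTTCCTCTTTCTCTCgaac
Rps6, chr4:86857353-86857382, minus strand: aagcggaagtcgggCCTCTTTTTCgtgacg
Rplp2, chr7:141447636-141447665, plus strand: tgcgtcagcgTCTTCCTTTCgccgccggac
Rps16, chr7:28350674-28350703, plus strand: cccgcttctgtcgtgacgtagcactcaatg
Rps13, chr7:116334176-116334205, minus strand: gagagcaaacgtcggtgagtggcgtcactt
Rps15a, a small subunit protein, has a run across the start, and so do Rpl28, Rpl38, Rpl15, Rpl35, Rps6 (the substrate of the S6 kinases) and Rplp2 (a protein of the stalk that recruits elongation factors). No such run is found at the entries of Rps16 and Rps13. This says only that the letters are not in this window. The genes shown were picked after their values were seen, and others lower in pre-B cells, such as Rpl31 and Rpl10, are not shown. Whether tract and stage change go together over the 64 genes was not tested.

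The genes took a small share of the counts, and that share was highest in the shallowest library. The 85 genes summed to between 6932 and 18675 counts in a library, out of 1888871 to 9048055 gene counts, and their share ran from 0.205% to 0.367%. The deepest library held 4.79 times the gene counts of the shallowest, whereas the highest sum over the 85 genes was 2.69 times the lowest. Actb, the abundant gene for beta actin, ran from 1500 to 2650 counts, a 1.77-fold range. Whether duplicate reads were removed before counting was not given in the sources used here.

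In pre-pro B cells the share was 0.253% ± 0.0135 for WT, 0.229% ± 0.0383 for het and 0.209% ± 0.00451 for homo (SD, n = 3 libraries). The 3 homo libraries held 8592557 to 9048055 gene counts and the 3 WT libraries 5443344 to 6492192. The het libraries divided in the same way: the share was 0.273% in the library with 4683715 gene counts and 0.208% and 0.205% in those with 8771793 and 8395882. In pre-B cells it was 0.239% ± 0.00608 for WT, 0.232% ± 0.0191 for het and 0.280% ± 0.0755 for homo. The last group held the shallowest library, replicate 3, at 0.367%, beside 0.232% and 0.242% in the other homo pre-B libraries. The groups WT and homo did not overlap in pre-pro B cells, and depth did not overlap between them either, so genotype and depth cannot be told apart there.

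**Figure D1:**
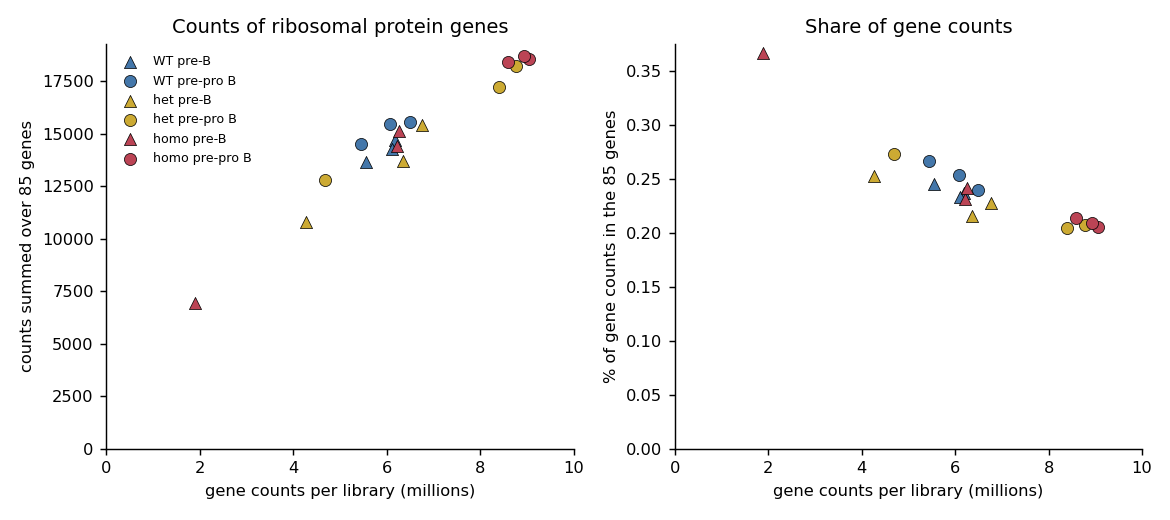
Left, counts summed over the 85 genes against gene counts, and right, the share of gene counts in them, for each of the 18 libraries (colour: genotype, circles: pre-pro B, triangles: pre-B). The sum rises from 6932 to 18675 while the share is highest, 0.367%, in the shallowest library.

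The counts are not per length, so levels of different genes are not ranked here. Levels are given as CPM, gene counts scaled to a common library size with TMM factors. In WT pre-pro B cells 8 genes had at least 100 CPM, 31 had less than 10, and the median was 15.4. Rpl4, whose protein lines the exit tunnel, had 1589, 1651 and 1624 counts in WT pre-pro B cells. The tunnel protein Rpl39 had 58, 61 and 62.

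Other genes had few counts in every library. Rpl5 and Rpl11, which carry the 5S ribosomal RNA, had 8 to 57 and 8 to 35 counts, and Rpsa, also known as a laminin receptor, had 9 to 53. The count of Rpl26 was 0 in all 18 libraries, where 3 counts correspond to between 0.332 and 1.59 CPM, limits that cover counting error only. The testis-type paralog Rpl10l was at 0 in all libraries too, Rpl32l had 0 to 9 counts and Rpl39l 0 to 7. These 4 genes did not pass the filter on low counts, and the other 81 passed it in every comparison.

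RefSeq holds 320 pseudogene entries whose names match the 77 genes that are not l-type paralogs. The 15 genes with no such entry had a median of 3461 counts over the 18 libraries, the 38 genes with 1 to 4 had 1320.5, and the 24 genes with 5 or more had 1273. Across these 77 genes Spearman's rho between names and counts was -0.31, a description in which all genes share the same libraries and length is not taken into account. Rpl4, Rpl8 and Rps3 have none, but so do Rpl24, Rps28 and Rpl11 with 234, 216 and 395 counts in all. Rpl26 has 6. No count file gave any reads under the entry for alignments that were not unique. Genes with near-identical copies are uncertain here, since the treatment of such reads was not given in the sources used here.

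In pre-pro B cells, 9 of the 81 tested genes were lower in homo than in WT and none was higher (edgeR quasi-likelihood test, adjusted p under 0.05). Among all 12188 genes tested, 10.4% were called lower and 12% higher, so the count of lower genes was close to the background. The median log2 fold change was -0.25 for the ribosomal protein genes and 0.01 for all genes, and 66 of the 81 lay below 0. In 42 genes every homo library lay below every WT library, against 23.5% of all genes, and in 0 above, against 23.4%. DESeq2 called 15 lower, 6 of them among the 9, against 9.62% of all genes lower. At an unadjusted p under 0.05, 33 genes were lower and none higher. The share of all genes at an unadjusted p was not computed in any comparison, so nothing is read from such counts.

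Rps4x, the X-linked small subunit protein, stood at 22.3, 21.5 and 20.1 CPM in WT and at 14.1, 15.1 and 15 in homo. Its raw counts were 119, 129 and 129 in WT and 130, 134 and 138 in homo. The homo libraries were thus lower in CPM and higher in raw counts, without overlap on either scale, and the log2 fold change was -0.54 ± 0.16 (SE, adjusted p = 0.0307).

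Rpl13a, a large subunit protein also known from translational silencing in interferon-treated cells, had 134, 122 and 114 CPM in WT and 87.9, 93.1 and 91.2 in homo (log2 -0.46 ± 0.13, adjusted p = 0.0404). Rps14, of the small subunit, had 58.4, 53.4 and 50.3 CPM in WT and 39.1, 40.4 and 38.4 in homo (log2 -0.47 ± 0.13, adjusted p = 0.027). For both genes every homo library lay below every WT library. Their raw counts went the other way, from 716 to 734 in WT to 812 to 837 in homo for Rpl13a and from 311 to 323 in WT to 353 to 361 in homo for Rps14.

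Rpl22 had 108, 107 and 105 CPM in WT and 91.4, 95.8 and 90.9 in homo (log2 -0.21 ± 0.07, adjusted p = 0.0447). Rps16, of the small subunit, had 9.76, 9.66 and 8.25 CPM in WT and 6.60, 6.88 and 5.88 in homo (log2 -0.52 ± 0.17, adjusted p = 0.0471). The homo libraries were below the WT libraries for both genes. Other calls included Rpl6, Rps2 and Rps15, with log2 fold changes of -0.47, -0.39 and -0.47.

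Members with well known roles that did not pass the test included the stalk proteins Rplp0 (log2 -0.51 ± 0.17, adjusted p = 0.0684) and Rplp2 (-0.37 ± 0.14, adjusted p = 0.0748). Rps6 had -0.20 ± 0.16, Rpl3, near the peptidyl transferase centre, -0.24 ± 0.15, Rps27a, made as a fusion with ubiquitin, -0.10 ± 0.19, and Rpl38 -0.13 ± 0.17. The values of Rpl5, Rpl11 and Rpsa, with few counts, lay above 0 (0.44 ± 0.25, 0.11 ± 0.27 and 0.11 ± 0.22).

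Genes with many counts had the lower values. Of the 36 tested genes with a mean of at least 100 counts, 7 were called, 35 lay below 0 and the median log2 fold change was -0.39. Of the 45 with fewer, 2 were called, 31 lay below 0 and the median was -0.13. Mean gene counts were 1.48 times higher in homo than in WT, and those of the 85 genes 1.22 times. Of the 38 genes with at least 100 counts on average in WT, 36 had a ratio below that of the gene counts, with a median of 1.19. Of the 42 with 10 to 100 counts, 23 did, with a median of 1.44. Mean counts of Actb were 1.06 times those in WT.

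Of the 126 genes outside the family with at least 500 CPM, 63 were called lower and 1 higher, with a median log2 fold change of -0.28. With log2 library size as a covariate no ribosomal protein gene was called (0.935% of all genes lower), nor with a term for the sex of the mice (1.35%), read from Xist and Y-linked counts. Depth did not overlap between WT and homo, so that covariate also takes up the genotype difference. The lost calls thus cannot tell depth from genotype. All WT libraries were XX, whereas in homo pre-pro B cells 1 was XX and 2 were XY. Leaving out 1 library in turn left 0 to 4 calls: 0 (2.78% to 6.16% of all genes lower) without WT replicate 1 or 2 or without homo replicate 1, 2 or 3, and 4 without WT replicate 3 (7.06%). In a fit of all 18 libraries 1 gene was called lower (2.19%).

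**Figure D2:**
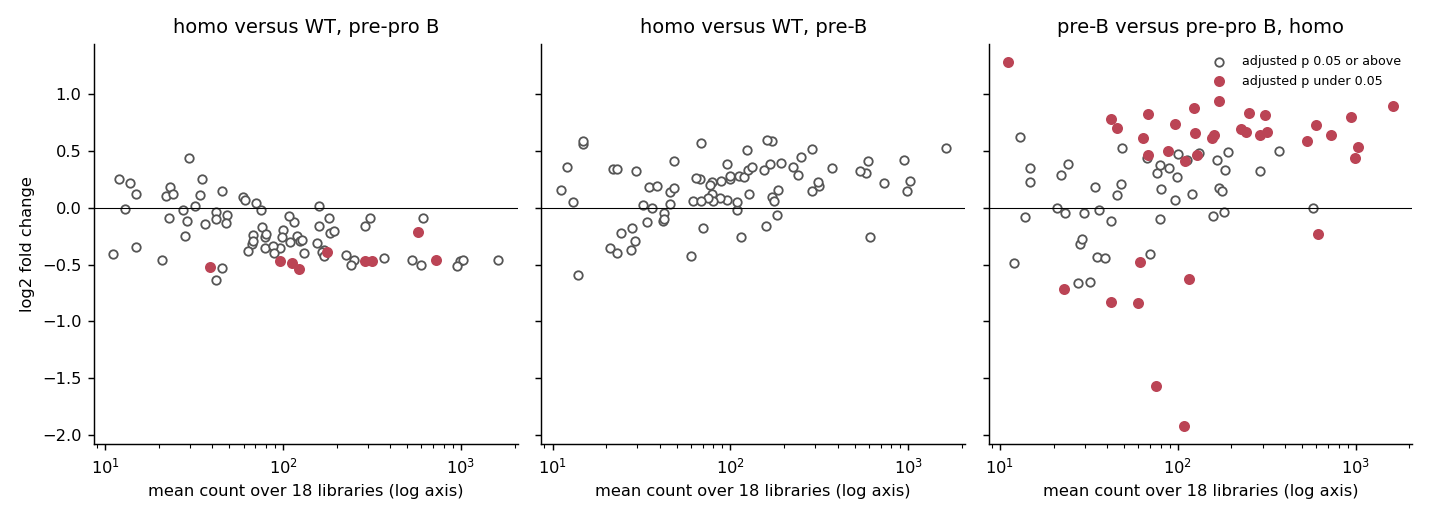
Log2 fold change of the 81 tested genes against the mean count over the 18 libraries (log axis), for homo against WT in pre-pro B cells, homo against WT in pre-B cells, and pre-B against pre-pro B cells in homo. Filled points passed an adjusted p of 0.05, 9, 0 and 36 genes. In the panel on the left 35 of the 36 genes with at least 100 counts lie below 0.

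Marker genes of other cells moved between the same groups, and their part in the result was not tested. Over 10 markers of plasmacytoid dendritic cells, all with counts, summed levels ran from 5820 to 6568 CPM in WT and 4422 to 4589 in homo pre-pro B cells. For the 10 B lineage markers they ran from 1313 to 1450 and 1115 to 1230. Sums of different lists are not ranked, since counts are not per length, and they do not give numbers of cells. The 10 NK and innate lymphoid markers summed to 25.5 to 35.7 CPM in WT and 176 to 313 in homo, the 10 myeloid markers to 95.3 to 103 and 207 to 279, and 8 genes of dividing cells to 777 to 1435 and 1914 to 1978. T lineage markers summed to 196 to 240 and 197 to 213 CPM. Of 8 erythroid and megakaryocyte markers 3 had counts, with sums of 1.25 to 1.88 CPM in WT and 1.19 to 3.84 in homo. For WT and homo pre-B cells the sums were 0.806 to 1.28 and 2.40 to 9.19 CPM. The globin genes Hba-a1, Hba-a2, Hbb-bs and Hbb-bt had 0 counts in every group, which does not show that such cells were absent. In bulk samples, fewer cells of a type and less RNA per cell cannot be told apart.

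Het against WT gave no call in pre-pro B cells (edgeR, background 0.558% either way, 0.435% higher and 0.123% lower). At an unadjusted p under 0.05, 8 were lower and none higher (share of all genes not computed). DESeq2 called 0, and the median log2 fold change was -0.20. Every het library lay below WT in 6 genes (background 9.71%) and above it in 1 (12.4%). The count turned on 1 library: without het replicate 1, the shallow one, 28 genes were called lower, against 9.44% of all genes in that fit. Rplp0, the scaffold of the stalk, shows the pattern, with 123 CPM in that library beside 75.7 and 76.9 in the other het libraries, 97.6 to 113 in WT and 73.3 to 76.9 in homo. Its counts were 563 to 683 in het, 601 to 640 in WT and 677 to 684 in homo.

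Homo against het in pre-pro B cells gave 0 calls with edgeR and with DESeq2 (background 0.0164%, 0% higher). The libraries did not overlap in 3 genes lower in homo (background 7.67%) and 4 higher (9.55%), and 3 had an unadjusted p under 0.05. In 2 of them, Rpl12 and Rpl9, the value was higher (log2 0.31 ± 0.13 and 0.54 ± 0.23), and in Rpl3l, the muscle-type paralog of Rpl3, it was lower (log2 -0.59 ± 0.25). These 3 genes were picked after their values were seen.

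In pre-B cells no ribosomal protein gene was called between homo and WT by edgeR or DESeq2, against a background of 15.9% (7.42% higher, 8.45% lower), and 0 of the 81 had an unadjusted p under 0.05. The median log2 fold change was 0.19, and 62 genes lay above 0. Every homo library lay below WT in 3 genes (background 22.2%) and above it in 5 (20.4%). These values rest in part on homo replicate 3. Rpl4 stood at 263, 257 and 630 CPM in homo and 255, 277 and 258 in WT, and Rps26, near the exit of the messenger channel, at 28.1, 28.4 and 77.5 in homo and 25.3, 30.1 and 28 in WT. In both genes the shallow library was far above the rest, while its other replicates lay within or next to the WT range. With both shallow pre-B libraries (this one and het replicate 2) left out, the median was -0.02 and still no gene was called.

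The shallow library kept more counts for genes with many counts. Replicate 3 of homo pre-B cells held 0.303 of the mean gene counts of the other homo pre-B libraries, but 0.470 of their counts in the 85 genes. Of 37 genes with at least 100 counts in the others, 33 lay above the ratio of the gene counts, and of 44 genes with fewer, 18 did. For het pre-B replicate 2 the ratios were 0.650 and 0.741, with 30 of 35 and 19 of 46 genes above. For het pre-pro B replicate 1 they were 0.546 and 0.721, with 37 of 44 and 18 of 37 above. The same held in all 3 shallow libraries: a larger part of the genes with many counts than of those with few lay above the depth ratio.

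Het against WT in pre-B cells gave 0 calls with edgeR and DESeq2 (background 6.18%, 2.8% higher and 3.38% lower). There, 4 genes had an unadjusted p under 0.05, all lower (share of all genes not computed), and the median log2 fold change was -0.04. Every het library lay below WT in 10 genes (background 16.9%) and above it in 1 (16.4%). With homo against het both tools called 0 (background 1.89%, 0.806% higher and 1.09% lower), 0 had an unadjusted p under 0.05, and the median was 0.27. The groups did not overlap in 0 genes lower in homo (background 8.35%) and 5 higher (7.19%).

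The stages differed in a few genes in all 3 genotypes. From pre-pro B to pre-B cells, edgeR called 3 genes higher and 9 lower for WT (background 31% and 33.3%, 64.3% either way). For het it called 1 higher and 11 lower (background 32.4% and 35.8%, 68.1% either way). For homo it called 28 higher and 8 lower (background 32.7% and 36.4%, 69.1% either way). Shares of the 81 genes called were thus below the background in WT and het in both directions, and in homo for lower calls. They were near it for higher calls in homo. Rpl10, Rpl17, Rpl31, Rps13 and Rps4l were lower and Rps15a was higher in all 3 genotypes, of 16 genes lower and 30 higher in any. Libraries of the same genotype and number had the same sex at both stages in 9 of 9 pairs, and with these pairs as a block Rpl17 was no longer called in any genotype (adjusted p = 0.0683, 0.0637 and 0.0627 for WT, het and homo). The 3 comparisons use different libraries but 1 fit. Between stages, libraries did not overlap in 21 genes lower and 6 higher for WT (background 40.3% and 39.4%). These counts were 13 and 4 for het (36.5% and 33%) and 14 and 36 for homo (39.3% and 33.4%).

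Rpl31, a large subunit protein at the tunnel exit, had 25.3, 24.6 and 26.5 CPM in WT pre-pro B cells and 6.87, 6.63 and 6.45 in WT pre-B cells. Levels ran from 21.8 to 25.8 and 24.0 to 25.5 CPM in het and homo pre-pro B cells, and from 4.21 to 6.66 and 5.71 to 8.41 in het and homo pre-B cells. The stages did not overlap in any genotype. For WT, Rpl31 fell by 1.94 ± 0.15 on the log2 scale (3.83-fold, adjusted p = 2.36e-09). The values were -2.11 ± 0.15 for het and -1.92 ± 0.15 for homo.

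The Rpl31 gene (chr1:39367851-39371911, plus strand, GRCm38.p6) shares its last 417 bases with Tbc1d8, which is annotated on the opposite strand. Tbc1d8 stood at 675 ± 28.6 CPM in WT pre-pro B cells and 4.31 ± 0.466 in WT pre-B cells, and fell by 7.28 ± 0.16 on the log2 scale. Its counts were 3710 to 4127 and 22 to 30, against 135 to 170 and 37 to 43 for Rpl31. The strand setting of the counting was not given in the sources used here, so reads of Rpl31 and of its antisense neighbour cannot be told apart.

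Rps4l, a paralog of Rps4x, had 18, 14.3 and 15.9 CPM in WT pre-pro B cells and 5.43, 6.09 and 3.54 in WT pre-B cells, again with no overlap. The log2 fold change for WT was -1.68 ± 0.22 (adjusted p = 3.3e-06). The values were -1.2 ± 0.21 for het and -1.57 ± 0.23 for homo. Rps4l (chr6:148354656-148355596) lies whole within Tmtc1, which went from 7.84 ± 1.03 to 4.79 ± 0.688 CPM in WT (log2 -0.71 ± 0.31, adjusted p = 0.0499). Overlap with a coding gene was annotated for 12 of the 85 genes, Rpl31 and Rps4l among them, and 24 genes hold a small nucleolar RNA in their span.

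Rps15a was the gene called higher in every genotype. It had 39.4, 41.6 and 37.1 CPM in WT pre-pro B cells and 54.5, 57.1 and 58.7 in WT pre-B cells. The log2 fold change was 0.53 ± 0.11 for WT (adjusted p = 0.000284), 0.59 ± 0.10 for het and 0.82 ± 0.11 for homo. Het pre-pro B libraries ran from 38.7 to 41.2 CPM and homo ones from 34.2 to 41.8, and pre-B libraries from 54.6 to 66.1 and 61 to 74.5. Every pre-B library lay above every pre-pro B library.

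**Figure D3:**
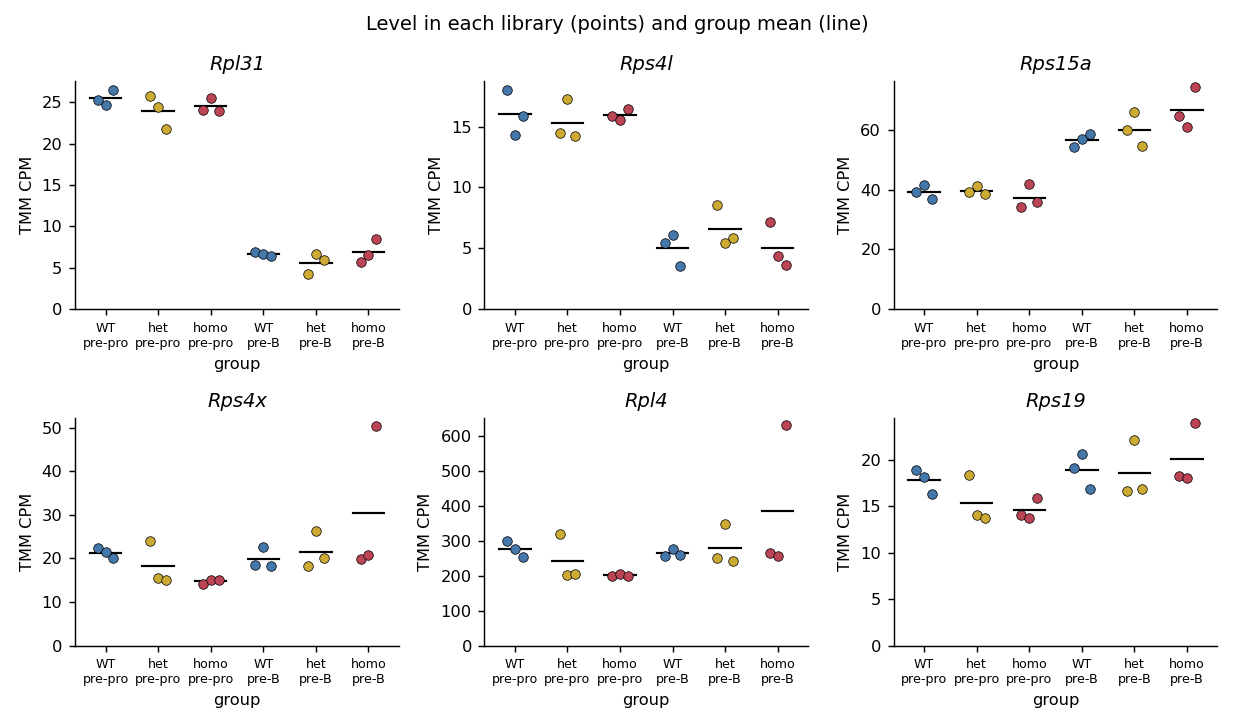
TMM-normalised CPM of 6 genes in each of the 18 libraries (points, with replicates 1 to 3 from left to right) by genotype and stage, with the group mean as a line. Rpl31 and Rps4l are lower and Rps15a higher in pre-B cells of each genotype, while for Rps4x, Rpl4 and Rps19 the shallow homo pre-B replicate 3 stands above the other homo libraries.

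Rps16 had 4.48, 4.12 and 3.87 CPM in WT pre-B cells, below the 8.25 to 9.76 of WT pre-pro B cells. It fell by 1.14 ± 0.20 on the log2 scale in WT (adjusted p = 6.84e-05) and by 0.70 ± 0.20 in het, and was not called in homo (log2 -0.44 ± 0.21). Rpl10, which joins the large subunit late in its maturation, had 20.7, 22.3 and 21.3 CPM in WT pre-pro B cells and 17.6, 15 and 13.5 in WT pre-B cells. It fell by 0.48 ± 0.13, 0.68 ± 0.14 and 0.63 ± 0.14 in WT, het and homo. The stages did not overlap for Rps16 or Rpl10 in WT.

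Rps13, whose gene holds a small nucleolar RNA, fell by 0.77 ± 0.30, 1.16 ± 0.33 and 0.83 ± 0.30 on the log2 scale in WT, het and homo. Its counts were 44 to 56 in WT pre-pro B and 20 to 46 in WT pre-B cells. Rpl17 fell by 0.46 ± 0.18, 0.46 ± 0.18 and 0.48 ± 0.19 in the fit without the block. Rpl28 and Rpl36a rose in WT by log2 0.73 ± 0.25 and 0.74 ± 0.28 (Rpl36a with the block: adjusted p = 0.0691), on 15 to 33 and 7 to 19 counts a library. Rpl36 and Rps27 were called lower in het, with log2 fold changes of -1.43 ± 0.34 and -0.74 ± 0.27.

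In homo, the 28 genes called higher included the stalk proteins Rplp0 (log2 0.73 ± 0.24) and Rplp1 (0.67 ± 0.23), Rps3, at the messenger entry (0.54 ± 0.19), Rps4x (0.88 ± 0.27), Rpl4 (0.90 ± 0.26), Rps19 (0.41 ± 0.16), Rps26 (0.94 ± 0.29) and Rpl13a (0.64 ± 0.18). Rpl7, Rpl39, Rpl41 and Rps27l rose by log2 0.84, 0.83, 0.66 and 0.64. Rps6, Rpl3, Rpl5, Rpl11, Rpl38, Rplp2, Rps27a and Rpsa were called between stages in no genotype, with log2 values from -0.36 to 0.47. The largest value was that of Rpl23a (1.28 ± 0.45), on 6 to 14 counts in homo pre-pro B and 1 to 20 in homo pre-B cells, where the groups overlapped. Rpl12 fell by 0.84 ± 0.25 on the log2 scale.

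More of the genes with many counts were called higher. Of the 36 genes with a mean of at least 100 counts 20 were called higher, and of the 45 with fewer, 8. The homo pre-pro B libraries had 8592557 to 9048055 gene counts and the homo pre-B libraries 1888871 to 6257527. Without homo pre-B replicate 3, 14 were called higher and 8 lower (all genes in that fit: 31.6% and 35.6%). With log2 library size as a covariate 5 were higher and 6 lower (all genes: 29.3% and 32.7%). The values of Rpl4, Rplp0, Rplp1, Rps3, Rpl39 and Rpl7 then lay just below 0. Depth did not overlap between the stages in homo, so stage and depth cannot be told apart there. Among genes outside the family with at least 500 CPM, 74 of 120 were called higher and 17 lower. Over 8 genes of dividing cells, summed levels ran from 1914 to 1978 CPM in homo pre-pro B cells and 4158 to 8621 in homo pre-B cells, and from 777 to 1435 and 3776 to 4093 in WT. Markers of other cells moved between the stages too. Plasmacytoid dendritic markers summed to 5820 to 6568 CPM in WT pre-pro B cells and 625 to 685 in WT pre-B cells, and to 4422 to 4589 and 614 to 717 in homo. T lineage markers summed to 196 to 240 and 50.8 to 56.4 CPM in WT, and to 197 to 213 and 30.7 to 40.1 in homo. B lineage markers summed to 1313 to 1450 and 2742 to 2897 CPM in WT, and to 1115 to 1230 and 2706 to 4652 in homo. In WT the NK and innate lymphoid markers went from at least 25.5 to at most 3.40 CPM and the myeloid markers from at least 95.3 to at most 58.0. The part of these cells in the stage results was not tested.

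**Figure D4:**
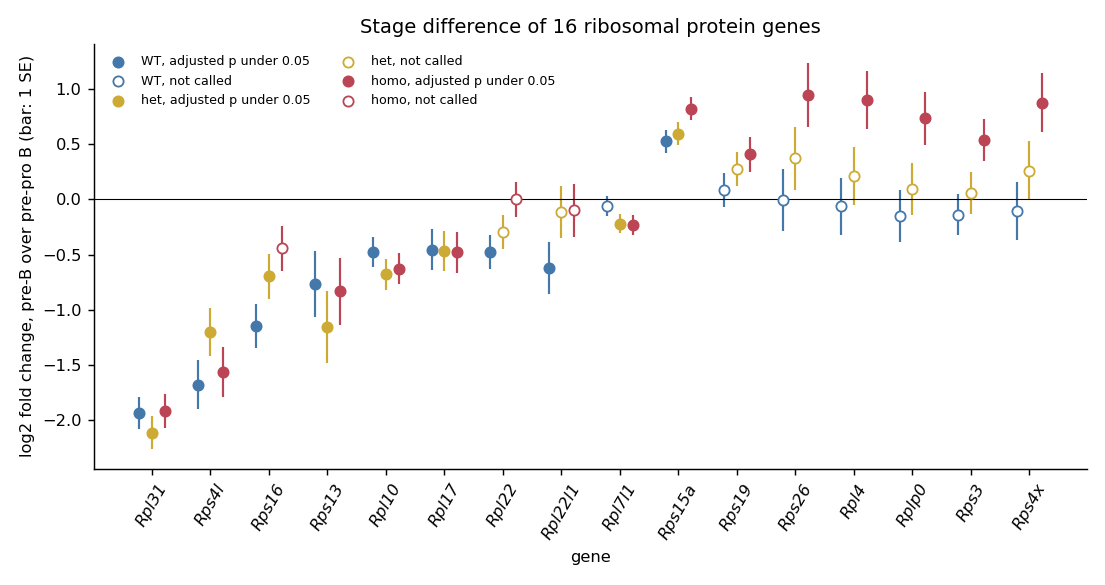
Log2 fold change from pre-pro B to pre-B cells, with 1 SE, of 16 named genes in WT, het and homo (filled: adjusted p under 0.05). Rpl31, Rps4l, Rps13, Rpl10 and Rpl17 are lower and Rps15a higher in all 3 genotypes. Rps26, Rpl4, Rplp0, Rps3 and Rps4x are called in homo and not in WT or het. For the difference between WT and homo edgeR called none of them and DESeq2 called Rplp0 and Rps4x. The difference between het and homo was not tested.

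Whether the effect of the homo genotype differed between the stages was tested in the fit of all 18 libraries. EdgeR called 0 of the 81 genes, against a background of 5.17% higher and 9.37% lower, and DESeq2 called 5 higher (7.47% of all genes higher). In 24 genes the unadjusted p was under 0.05, all with a value above 0, with the share of all genes not computed. A value above 0 means that the homo minus WT difference was greater in pre-B than in pre-pro B cells. It does not mean a higher level in pre-B cells. The median log2 difference was 0.42, and -0.04 over all genes. With edgeR, Rps4x had 0.98 ± 0.38 (adjusted p = 0.0945), Rplp0 0.89 ± 0.34 (0.0917), Rps14 0.60 ± 0.20 (0.0541) and Rpl4 0.96 ± 0.37 (0.0945). The 5 genes called by DESeq2 were Rps4x, Rplp0, Rps14, Rps15 and Rps9 (DESeq2 adjusted p = 0.0388, 0.0472, 0.0232, 0.0428 and 0.0449). With both shallow pre-B libraries left out the median was 0.25 and no gene was called. Calls depended on single libraries: 9 genes were called higher without homo pre-B replicate 1 (5.17% of all genes higher in that fit) and 6 without replicate 2 (6.3%).

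The balance of paralogs was read as a share within a library. Rps4l made up 42.9% ± 2.55 of the counts of Rps4x and Rps4l together in WT pre-pro B cells and 20% ± 3.32 in WT pre-B cells. At the same stages it was 46.3% ± 7.89 and 23.8% ± 7.55 for het, and 52% ± 1.18 and 16.8% ± 9.84 for homo. In each genotype every pre-B library lay below every pre-pro B library. No homo pre-pro B library overlapped WT, with 50.7% to 53.1% against 40% to 44.7%. The het pre-pro B libraries differed in the same way by depth: the share was 37.5% in the shallow replicate 1 and 52.7% and 48.8% in the deeper ones. Genotype and depth cannot be told apart for this share in pre-pro B cells.

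Rpl22l1, the paralog that Rpl22 holds down, made up 13.1% ± 0.0684 of its pair in WT and 12% ± 0.154 in homo pre-pro B cells, and 12% ± 0.809 in WT pre-B cells. In WT both fell with stage: Rpl22 by 0.48 ± 0.16 and Rpl22l1 by 0.62 ± 0.23 on the log2 scale (Rpl22l1 with the block: adjusted p = 0.0604). Rpl7l1, a nucleolar relative of Rpl7, made up 70.8% ± 1.09 of its pair in WT and 75.9% ± 0.510 in homo pre-pro B cells, without overlap. In het pre-pro B cells it was 67.2% in the shallow replicate 1 and 76.6% and 74% in the deeper libraries, so depth moved with this share too. In homo pre-B cells it was 67.9% and 69.3%, and 41.6% in the shallow replicate 3, in which Rpl7 had 98.0 CPM. Rpl7l1 itself was lower in pre-B cells of het and homo mice (log2 -0.22 ± 0.09 and -0.23 ± 0.09; with the block, adjusted p = 0.0934 and 0.0696).

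Rps27l, a p53 target, had 82.4% ± 1.99 of the counts of its pair with Rps27 in WT pre-pro B cells, 82.8% ± 1.10 in WT pre-B cells and 91.1% ± 3.69 in het pre-B cells, where every library lay above those of WT. Homo pre-B libraries, at 86.8%, 84.6% and 97.9%, also lay above the WT pre-B libraries, which ran from 82.0% to 84.0%. The highest share in homo was that of the shallow replicate 3, with 2 counts of Rps27. In het it was 94.5%, in the shallow replicate 2 with 9 counts. The part of depth in this share was not tested. Rps27 had 9 to 25 counts in the het pre-B libraries. Of the pair of Rpl36a and Rpl36al, Rpl36al held 92.1% ± 2.06 in WT pre-pro B and 84.7% ± 2 in WT pre-B cells. Rpl36a had only 7 to 19 counts in these WT libraries. Outside WT the stages overlapped for this share. Het libraries ran from 85.8% to 91.5% among pre-pro B and from 80.8% to 90.5% among pre-B cells. Homo libraries ran from 87.7% to 89.5% at the earlier stage and from 86.2% to 91.4% at the later one.

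Other genes of translation were read beside the family. In homo against WT pre-pro B cells 12% of all genes were called higher and 10.4% lower. Some lists below had a larger share of lower genes, but so did genes outside the family with at least 500 CPM (63 of 126). Nothing particular to the lists is thus read from their counts. Of 31 translation initiation factors, 12 were lower and none higher in homo than in WT pre-pro B cells, with a median log2 fold change of -0.16, and of 5 elongation factors 1, Eef1d, was lower (log2 -0.24 ± 0.07). Of 19 messengers outside the family that were listed for a terminal oligopyrimidine tract 5 were lower and 1 higher, with a median of -0.32. This list shares genes with those of the initiation and elongation factors, Eef1d among them. The counts of these lists are thus not separate results. The 44 genes of ribosome biogenesis and RNA polymerase I had 7 higher and 1 lower (median 0.08), with Myc, which drives this programme, at log2 1.2 ± 0.31 (adjusted p = 0.0286). The 77 mitochondrial ribosomal proteins had 2 higher and 1 lower, with a median of -0.00. From pre-pro B to pre-B cells in WT, 23 of 76 tested mitochondrial ribosomal proteins were higher and 6 lower (median 0.20), and 14 of 44 biogenesis genes higher and 6 lower (median 0.15). Of all genes 31% were higher and 33.3% lower in that comparison, so the shares of higher genes in both lists were near the background.

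The ChIP lists give regions bound by Ikaros, the founding member of the Aiolos family, and by Aiolos. With 1 library each there is no test. A gene was counted when a region lay within 1000 bases of its RefSeq start, which could be done for 64 of the 85 genes. In WT cultured pre-B cells 3 of the 64 (4.69%) had an Ikaros region, against 1.72% of 17381 genes, and in homo 3 (4.69%), against 5.86%. In thymocytes 3 (4.69%) had one in WT, against 3.69%, and 13 (20.3%) in homo, against 18.9%. The 4 Ikaros lists differ in length, with 3683, 8609, 3572 and 8221 regions, so a change in the number of genes shows no change in binding.

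**Figure D5:**
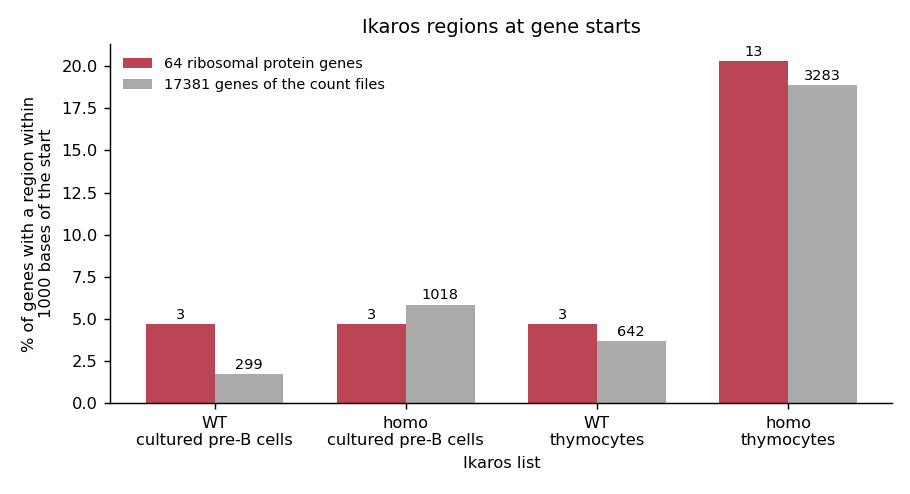
Share of genes with a deposited Ikaros region within 1000 bases of the start, for the 64 ribosomal protein genes with a start (red) and all 17381 genes (grey), with the number of genes above each bar. The share of the family runs from 4.69% to 20.3% and that of all genes from 1.72% to 18.9%.

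Rps19 and Rps26 had a region in all 4 Ikaros lists. At Rps19 the authors' fold was 4.79 in WT and 16.3 in homo cultured pre-B cells, ranks 2217 of 3683 and 190 of 8609 in their lists. For thymocytes it was 7.38 in WT and 24.1 in homo, ranks 601 of 3572 and 7 of 8221. The region of the homo thymocytes spans chr7:24883741-24884992. Rps26 had folds of 4.61 and 3.74 in WT and homo cultured pre-B cells and 3.90 and 4.49 in WT and homo thymocytes, near or below the list medians of 5.23, 4.78, 4.57 and 4.26. Rpl3l had a region in both pre-B lists (folds 5.36 and 6.23), and Rpl37 in both thymocyte lists (3.30 and 5.96). Rpl4 and Rpl27a had folds of 5.54 and 4.74 in homo thymocytes.

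The 250 bases before the starts of Rps19 and Rps26 are shown since both carried a region in every Ikaros list. Capitals mark GGGAA, the core of the Ikaros motif, or its reverse complement TTCCC.
Rps19, chr7:24884342-24884591, plus strand: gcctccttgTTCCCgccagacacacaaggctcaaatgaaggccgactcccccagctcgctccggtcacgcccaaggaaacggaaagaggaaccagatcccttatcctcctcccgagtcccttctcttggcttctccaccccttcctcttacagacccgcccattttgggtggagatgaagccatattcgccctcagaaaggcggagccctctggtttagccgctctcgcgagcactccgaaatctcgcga
Rps26, chr10:128626507-128626756, minus strand: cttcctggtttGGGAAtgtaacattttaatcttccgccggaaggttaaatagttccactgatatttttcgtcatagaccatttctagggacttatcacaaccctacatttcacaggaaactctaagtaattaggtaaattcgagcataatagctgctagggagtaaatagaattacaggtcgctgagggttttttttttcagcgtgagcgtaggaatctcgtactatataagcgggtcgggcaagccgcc
Rps19 holds 1 TTCCC and Rps26 1 GGGAA. On either strand GGGAA was found in the 250 bases of 42 of 64 genes (65.6%) and of 59.4% of all 27025 genes, so a match is common. CCGGAAG, the core of ETS factor sites, was found in 19 of 64 (29.7%) against 7.83%, GGGCGG, the GC box, in 32 (50%) against 35.4%, and TATAAA, the TATA box, in 5 (7.81%) against 14.3%. The motifs do not contain each other, and a match is not a bound site.

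In the RNA libraries, Rps19 had 19, 18.1 and 16.3 CPM in WT pre-pro B cells and 14.1, 13.8 and 15.9 in homo, and 19.2, 20.6 and 16.9 in WT pre-B cells and 18.2, 18.1 and 24 in homo. It was not called between homo and WT at either stage.

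In the Aiolos lists, which held 431 and 24 regions in WT and homo cultured pre-B cells and 25 and 184 in WT and homo thymocytes, 1 ribosomal protein gene had a region: Rps19 in homo thymocytes, with a fold of 5.46, below the median of 6.28 of that list. The shares of all genes were 0.023%, 0%, 0% and 0.0978%.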

How the data were processed

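The members and gene lists were chosen with earlier results of these data known. RNA values are raw read counts per gene symbol, as deposited by the authors. The 5 entries that name no gene were left out of library sizes, among them reads in no gene, which made up 29.8% to 40.1% of a file. Per the submitters' processing notes, mm10 was used with HISAT2 2.1.0, STAR 2.7.0 and MACS2 2.1.1, with no roles stated. The counting program, its strand setting and duplicate handling were not given in the sources used here. The deposited peak lists, broad peaks called per library, are in broadPeak column order, with a fold (a ratio), a score and −log10 values of p and q. The fold is the authors' own value, and the score was not used.

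The model was edgeR's robust quasi-likelihood F test (4.0.16, R 4.3.3) after filterByExpr and TMM scaling, with Benjamini-Hochberg adjustment over all genes tested and calls under 0.05. Genotypes were compared within the 9 libraries of a stage, stages and their difference in all 18. The fits held 12188 (pre-pro B), 11411 (pre-B) and 12440 genes (both), with biological coefficients of variation of 8.13%, 16.3% and 12.4%. The functions were tested on simulated data. DESeq2 and other settings served as alternatives.

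Named genes were a list chosen by role, in each comparison the 3 called with the largest change each way, the members that failed the filter, and the 5 with the highest fold at their start. Other genes named with values (Rpl6, Rpl8, Rpl9, Rpl17, Rps2, Rps13, Rps15, Rpl36al and the genes whose starts are printed) were chosen after their values were seen. Some members are not reported here by name. Libraries with the same replicate number were not all found to deviate together: of 18 pairs within a stage, 3 had a correlation above 0.1, and of 9 pairs of 1 genotype across stages, 4 did. Ikzf3 carries a substitution, so its counts do not check the labels. Gene positions and promoters came from RefSeq tables of GRCm38.p6.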

Additional observations from a re-analysis of the deposited data

How the results depend on the processing

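A call is an adjusted p under 0.05 in edgeR or, where named, DESeq2. Some counts in this section stand without the share of all genes in the same fit. Such a count does not show whether the family moved more than all genes did. The 9 genes lower in homo than in WT pre-pro B cells became 15 with DESeq2, 0 with library size as a covariate, 0 with a sex term, 1 in a fit of all 18 libraries and 0 to 4 without 1 library. Library size as a covariate gave 3 calls between het and WT (26.3% of all genes) and 1 between homo and het pre-B cells (14.1%), and 22, 19 and 11 (71.5%, 71.3% and 62% of all genes) between stages in WT, het and homo, where the usual fit gave 12, 12 and 36. It turned the stage value in homo to -0.0175 for Rpl4, -0.0570 for Rplp0, -0.0164 for Rplp1, -0.0487 for Rps3, -0.0768 for Rpl39 and -0.0182 for Rpl7. A filter of 10 CPM in 3 libraries left 7 stage calls in het, with fewer genes tested, and the fit of all 18 libraries gave 1 call between het and WT pre-B cells. For the difference of the homo effect between stages, DESeq2 gave 5 calls and median-ratio size factors 1.

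Without 1 library, counts ran from 0 to 28 for het against WT pre-pro B cells, from 6 to 12 between stages in WT, from 22 (without pre-B replicate 3) to 44 (without pre-B replicate 1) in homo and from 0 to 9 for the difference between stages. The cause was not tested. The replicate number as a block (replicate block) gave 11 calls for homo against WT pre-pro B cells, 11, 11 and 32 between stages in WT, het and homo, and 0 elsewhere. Within a stage the numbers do not pair the libraries by their deviations (r from -0.52 to 0.12). Across stages, libraries of the same genotype and number had r from -0.05 to 0.24, above 0 in 8 of 9 pairs and above 0.1 in 4, and the same sex in 9. The labels do not say that they came from the same mouse. A replicate block within genotype across stages, added after seeing the data, gave 8, 11 and 32 calls in WT, het and homo (8, 10 and 32 of them among those of the fit without it) and 0 for the difference between stages.

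The share of counts moved by more than 1 SD in homo pre-pro B cells, to 0.217% without the 50 most abundant other genes and 0.204% of the TMM-effective size, and in WT pre-B cells, to 0.250% without those 50. Ikaros regions within 5000 bases were found at 5 and 6 genes (7.81% and 9.38%; all genes 4.26% and 10.7%) in WT and homo cultured pre-B cells and 20 (31.2%; 21.6%) in homo thymocytes. With a −log10 q of at least 5 they were found at 1 (1.56%; 1.85%) in WT and 6 (9.38%; 7.86%) in homo thymocytes, with 0 in the Aiolos list of homo thymocytes (all genes 0.0115%). These choices were added after seeing the data: leaving out both shallow pre-B libraries, and using either gene end for all 85 genes, which gave 3 and 3 genes in WT and homo cultured pre-B cells (3.53% each; all genes 2.05% and 5.9%) and 4 and 19 in thymocytes (4.71% and 22.4%; 3.6% and 16.9%).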
